A study of Homo sapiens with 8 samples.

Results

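The MYC, MAX and MXD network was read in a poly(A) RNA sequencing table of 2 human acute myeloid leukaemia (AML) cell lines, in which ALKBH5 was knocked down. Its 10 genes were taken from the table by their symbols: MYC, MYCN and MYCL, MAX, MXD1, MXD3, MXD4 and MXI1, MNT, and MLX. All 10 were among the 26830 gene symbols of the table, and 9 of them passed the filter on low values that left 14302 genes for testing. MYCN did not pass. ALKBH5 is an enzyme that removes the N6-methyl mark from adenosines in RNA.

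The 8 libraries formed 4 groups of 2. These were NOMO-1 cells with the lentiviral hairpin shALKBH5-#1, NOMO-1 cells with the control hairpin shNS, MOLM-13 cells with shALKBH5-#1 and MOLM-13 cells with shNS. Both lines come from AML with a fusion of the KMT2A (MLL) gene. All cells had been transduced with lentivirus and selected with puromycin, controls included, and the knockdown rested on 1 hairpin in each line. The series text gives 4 days of selection, whereas the protocols of the samples give 1 week, name FTO as the target of the virus and describe drug exposures, none of which appears among the sample labels. The labels do not state whether both libraries of each group were grown as separate cultures, and the p-values below therefore measure the spread between these libraries alone, part of which may be technical.

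MYC proteins are basic helix-loop-helix leucine zipper factors that bind DNA as dimers with MAX and raise transcription of genes for growth, ribosome assembly and metabolism. MXD1, MXD3, MXD4, MXI1 and MNT compete for MAX, bind the same E-box sites and repress transcription through SIN3 and histone deacetylase complexes, and several of them are known to increase as blood cells mature. MLX pairs with MNT and some MXD proteins and, in a parallel branch, with the glucose-sensing factor MondoA, the product of MLXIP. MYC is amplified, translocated or otherwise kept high in many leukaemias.

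Expression was given as TPM, a share of each library's transcripts corrected for transcript length, so levels may be compared between genes. In these bulk samples fewer cells of a type and less RNA per cell cannot be told apart, and the depth of the libraries is unknown. Differences were tested with limma on log2(TPM + 1) over all genes, so fold changes of genes with few TPM are understated, and a gene was called higher or lower at an adjusted p (Benjamini-Hochberg) under 0.05. The targeted gene was lower in both lines. ALKBH5 had 15.1 and 14.2 TPM in NOMO-1 shALKBH5 cells, against 70.4 and 71.8 TPM in NOMO-1 shNS cells (log2 fold change -2.21, SE 0.13, limma adjusted p = 0.000316). MOLM-13 cells had 9.45 and 7.35 TPM with shALKBH5, against 45.7 and 45.8 TPM with shNS (-2.32, SE 0.13, limma adjusted p = 0.000188).

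The median log2 fold change over all genes tested was 0.16 in NOMO-1 and -0.18 in MOLM-13, against which the changes below may be read. With median-of-ratios scaling of the libraries it was 0 and 0.03. The 2 MOLM-13 shALKBH5 libraries stood apart from each other: the log2 difference between them had an SD of 0.53 over 8804 genes averaging 10 TPM or more, against 0.13 to 0.18 in the other 3 groups. Of 8 myeloid markers, 7 in NOMO-1 and 8 in MOLM-13 had at least 1 TPM in every library of the line. The summed TPM of these markers was 3763 to 3890 in NOMO-1 shALKBH5 cells and 1608 to 1682 in NOMO-1 shNS cells, and 14566 to 21673 in MOLM-13 shALKBH5 cells and 10406 to 10851 in MOLM-13 shNS cells. The sums were mostly LYZ, lysozyme, and ELANE, neutrophil elastase. LYZ had 1532 and 1507 TPM in NOMO-1 shALKBH5 cells, against 463 and 499.9 TPM in NOMO-1 shNS cells, and 19263 and 12121 TPM in MOLM-13 shALKBH5 cells, against 9126 and 8493 TPM in MOLM-13 shNS cells. MPO and ITGAM in MOLM-13, and CD33, SPI1 and CEBPA in NOMO-1, were lower in both knockdown libraries than in both controls. MPO, myeloperoxidase, had 19.3 and 16.4 TPM in MOLM-13 shALKBH5 cells, against 384 and 457 TPM in MOLM-13 shNS cells. CD33, a myeloid surface receptor, had 69.1 and 65.3 TPM in NOMO-1 shALKBH5 cells, against 82.5 TPM in each NOMO-1 shNS library. The part of these markers in the results below was not tested. Lymphoid, epithelial and fibroblast markers summed to at most 3.15 TPM in any library, and erythroid markers were listed at 0 in all libraries but MOLM-13 shALKBH5 replicate 3. The endothelial list summed to 46.5 to 101 TPM, which came from PECAM1, a gene that myeloid cells also express.

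MYC, MXI1, MAX, MXD4, MNT and MLX were the members called between NOMO-1 shALKBH5 and shNS cells. MAX, MXD4, MNT and MLX were higher, and the promoters of 3 of these 4 hold the palindromic E-box CACGTG, the site that MYC, MXD and MNT dimers with MAX can bind. The 4 promoters are printed because these genes were called higher in NOMO-1 shALKBH5 cells and their responses differed between the lines. The MYC window was not used here. The sequences are RefSeq windows of build GRCh38.p14, from 250 bases before to 50 bases after an annotated start, 5′ to 3′ on the gene's strand, with CACGTG in capitals. The windows lie at chr4:2262060-2262359 (minus strand) for MXD4, chr17:2401011-2401310 (minus strand) for MNT, chr17:42566850-42567149 (plus strand) for MLX and chr14:65102234-65102533 (minus strand) for the first of 2 starts of MAX.
MXD4: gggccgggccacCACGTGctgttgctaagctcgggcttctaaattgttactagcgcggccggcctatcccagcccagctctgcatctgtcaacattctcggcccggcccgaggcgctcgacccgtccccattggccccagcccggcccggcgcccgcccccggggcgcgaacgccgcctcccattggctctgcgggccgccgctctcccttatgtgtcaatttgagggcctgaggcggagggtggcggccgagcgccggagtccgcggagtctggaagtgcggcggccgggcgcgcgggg
MNT: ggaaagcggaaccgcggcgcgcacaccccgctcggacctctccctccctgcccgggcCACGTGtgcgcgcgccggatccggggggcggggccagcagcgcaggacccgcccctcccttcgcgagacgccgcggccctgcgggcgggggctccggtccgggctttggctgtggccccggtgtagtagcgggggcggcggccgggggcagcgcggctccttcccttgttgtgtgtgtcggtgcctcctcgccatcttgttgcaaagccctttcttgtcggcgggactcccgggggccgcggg
MLX: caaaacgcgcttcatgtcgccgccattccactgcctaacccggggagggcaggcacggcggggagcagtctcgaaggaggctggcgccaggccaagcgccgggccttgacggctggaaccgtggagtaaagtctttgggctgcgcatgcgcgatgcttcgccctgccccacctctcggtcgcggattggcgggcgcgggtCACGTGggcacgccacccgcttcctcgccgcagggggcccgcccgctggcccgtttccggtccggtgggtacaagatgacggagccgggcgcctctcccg
MAX: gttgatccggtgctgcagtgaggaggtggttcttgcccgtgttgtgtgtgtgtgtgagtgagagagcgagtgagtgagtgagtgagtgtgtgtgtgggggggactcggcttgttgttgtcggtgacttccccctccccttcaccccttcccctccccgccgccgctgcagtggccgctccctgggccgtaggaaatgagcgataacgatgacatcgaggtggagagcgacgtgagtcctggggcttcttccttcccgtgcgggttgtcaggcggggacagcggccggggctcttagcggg
The first base of the E-box is 238 bases before the start in MXD4, 193 in MNT and 50 in MLX. The motif reads the same on both strands. Of the 9 member genes whose windows were read (12 windows), these 3 held it, and it was not in the windows of MAX, MXD1, MXD3, MXI1, MYCL or MYCN. Over all RefSeq promoters of the same length, 2548 of 35116 windows (7.3%) and 2396 of 27305 genes (8.8%) held it. A match describes these letters in this window and was not measured as binding.

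MYC was far lower after ALKBH5 knockdown in NOMO-1 and moderately lower in MOLM-13. It had 39.1 and 57.2 TPM in NOMO-1 shALKBH5 cells, against 267 and 258 TPM in NOMO-1 shNS cells. The groups were 48.1 ± 12.8 and 262.1 ± 6.26 TPM (mean ± SD, n = 2 each), a 5.44-fold lower level that lay well outside the spread of both (log2 fold change -2.45, SE 0.20, limma adjusted p = 0.000531). Among the genes tested MYC stood at the 68.2nd and 76.1st percentile of the 2 knockdown libraries and at the 96.3rd and 96.1st of the controls. In MOLM-13, MYC had 206 and 271 TPM in shALKBH5 cells, against 375 and 397 TPM in shNS cells, at percentiles 96.2 and 97.9 against 98.0 and 98.2. The groups did not overlap, and MYC was 1.62-fold lower (log2 fold change -0.71, SE 0.20, limma adjusted p = 0.0343). This call was close to the threshold: it was kept in 8 of 17 alternative fits, and with median-of-ratios scaling the log2 fold change was -0.41 (limma adjusted p = 0.249), while the sign was negative in all 17. Without MOLM-13 shNS replicate 1 or 3 its limma adjusted p was 0.121 or 0.148, without either NOMO-1 shNS library 0.069, and without MOLM-13 shALKBH5 replicate 1 it was 0.0826.

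The response of MYC differed between the lines by the test of the difference itself. The NOMO-1 change minus the MOLM-13 change was -1.74 on the log2 scale (SE 0.29, limma adjusted p = 0.00838), where the median over all genes tested was 0.42. With median-of-ratios scaling the difference was -2.24 (limma adjusted p = 0.00801), and it passed the threshold in all 16 alternatives. The control cells of the lines had 267 and 258 TPM in NOMO-1 and 375 and 397 TPM in MOLM-13. The difference of -0.56 (SE 0.20) missed the threshold (limma adjusted p = 0.0547) and passed it in 7 of 16 alternatives. These were a pseudocount of 5 TPM, median-of-ratios scaling, quantile scaling, and the fits that left out a shALKBH5 library of either line. The sign was the same in all 16.

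MYCN and MYCL, the paralogues of MYC that are best known from neuroblastoma and small cell lung cancer, were low here, apart from MYCL in MOLM-13 shALKBH5 replicate 1. MYCN was listed at 0 or 0.04 TPM in every library and was not tested. MYCL had 1.99 and 2.01 TPM in NOMO-1 shALKBH5 cells, against 3.15 and 2.57 TPM in NOMO-1 shNS cells, and did not pass the test (-0.36, SE 0.50, limma adjusted p = 0.61). With NOMO-1 fitted alone its adjusted p was 0.0483, and without MOLM-13 shALKBH5 replicate 1 or 3 it was 0.021 or 0.0198. In MOLM-13, MYCL had 21.6 TPM in shALKBH5 replicate 1 and 5.77 TPM in replicate 3, against 4.6 and 4.83 TPM in shNS cells. Both knockdown values were above both controls, but a single library carried most of the difference (1.11, SE 0.50, limma adjusted p = 0.124). MYCL passed with median-of-ratios scaling (1.39, adjusted p = 0.0345) and without replicate 3 (1.99, adjusted p = 0.000167), and was at 0.24 without replicate 1 (adjusted p = 0.126).

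MAX, the obligate partner of MYC and a partner of the MXD proteins, moved opposite to MYC in NOMO-1. MAX had 53.9 and 51.6 TPM in NOMO-1 shALKBH5 cells, against 19.5 and 20.5 TPM in NOMO-1 shNS cells. The level was 2.64-fold higher (log2 fold change 1.36, SE 0.11, limma adjusted p = 0.000481), with an SD of 1.59 and 0.75 TPM within the groups. In MOLM-13, MAX had 12.2 and 10.7 TPM in shALKBH5 cells, against 11.1 and 9.95 TPM in shNS cells. These groups overlapped, and no difference was called (0.11, SE 0.11, limma adjusted p = 0.47). With median-of-ratios scaling the MOLM-13 value was 0.38 (limma adjusted p = 0.0169). The 2 responses differed by 1.25 (SE 0.16, limma adjusted p = 0.00411), and by 0.75 (adjusted p = 0.00939) with median-of-ratios scaling. In control cells MAX was also higher in NOMO-1 than in MOLM-13 (0.87, SE 0.11, limma adjusted p = 0.000738).

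**Figure D1:**
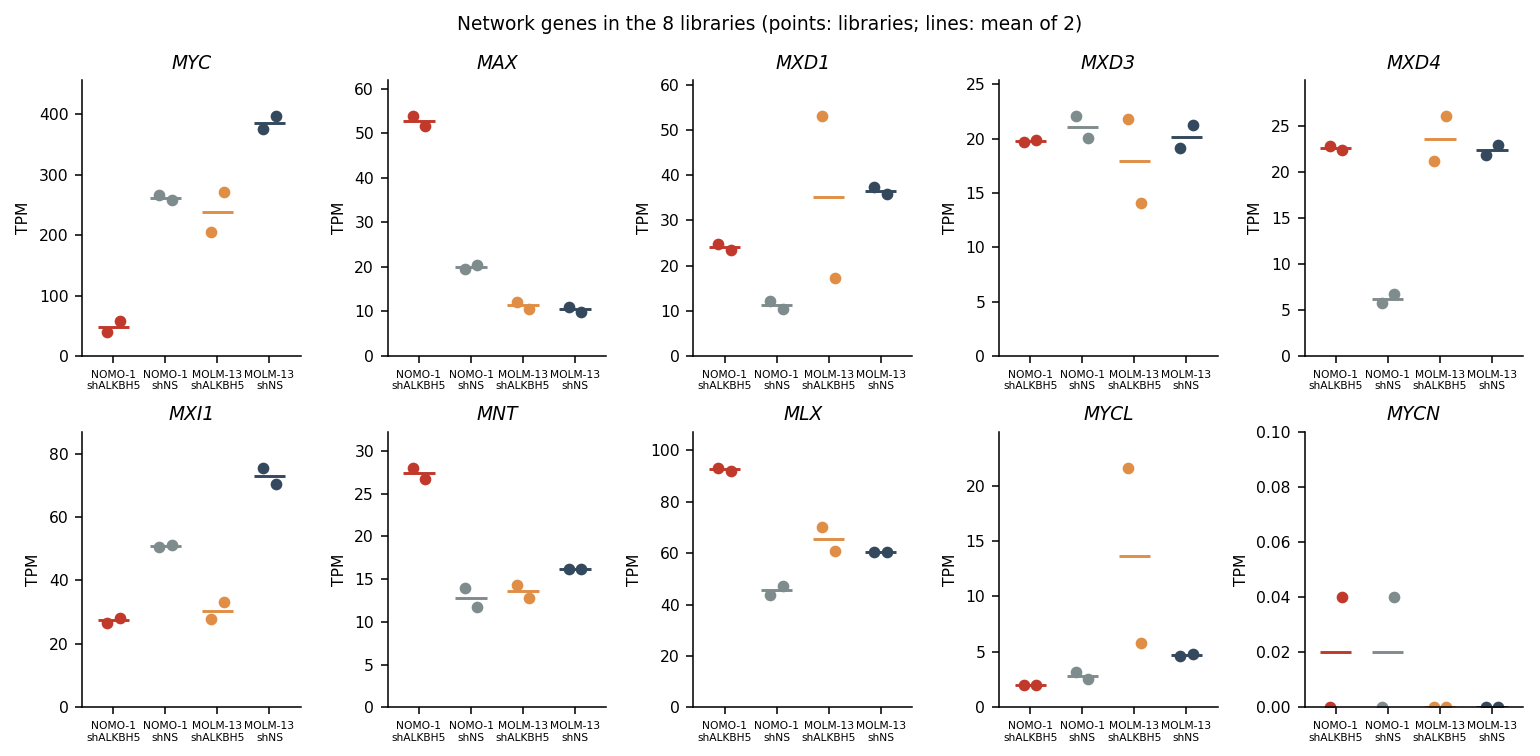
TPM (vertical axis, linear, its own scale for each gene) of the 10 network genes in each library, with NOMO-1 shALKBH5, NOMO-1 shNS, MOLM-13 shALKBH5 and MOLM-13 shNS from left to right; points are libraries and lines are means of 2. MYC lies at 39.1 and 57.2 TPM in NOMO-1 shALKBH5 cells and at 206 TPM or above in the other libraries, while MAX is at 51.6 TPM or above in those 2 libraries and at 20.5 TPM or below elsewhere.

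Of the 4 MXD genes, MXD4 rose in NOMO-1 and MXI1 fell in both lines. MXD4, a MAX-binding repressor, had 22.9 and 22.4 TPM in NOMO-1 shALKBH5 cells, against 5.71 and 6.70 TPM in NOMO-1 shNS cells. The level was 3.65-fold higher (log2 fold change 1.72, SE 0.13, limma adjusted p = 0.000443). Its levels in MOLM-13 were 21.1 and 26.1 TPM in shALKBH5 cells, against 21.8 and 22.9 TPM in shNS cells. The groups overlapped and MXD4 was not called (0.07, SE 0.13, limma adjusted p = 0.73). Control NOMO-1 cells thus had less MXD4 than control MOLM-13 cells (-1.70, SE 0.13, limma adjusted p = 8.71e-05), and the level in NOMO-1 shALKBH5 cells fell within the range of the 4 MOLM-13 libraries. The responses of the lines differed by 1.65 (SE 0.19, limma adjusted p = 0.00329), and by 1.14 (adjusted p = 0.029) with median-of-ratios scaling.

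MXI1, also called MXD2, is a MAX-binding repressor known as an antagonist of MYC. It had 26.5 and 28.3 TPM in NOMO-1 shALKBH5 cells, against 50.7 and 51.1 TPM in NOMO-1 shNS cells. The level was 1.86-fold lower (log2 fold change -0.87, SE 0.11, limma adjusted p = 0.00188). Levels in MOLM-13 were 27.7 and 33.1 TPM in shALKBH5 cells, against 75.6 and 70.3 TPM in shNS cells, and MXI1 was 2.40-fold lower (-1.24, SE 0.11, limma adjusted p = 0.000697). Neither pair of groups overlapped, and MXI1 was past the threshold in all 17 alternatives in both lines. The difference between the 2 responses, 0.37 (SE 0.16), was not called (limma adjusted p = 0.118), and was called without MOLM-13 shALKBH5 replicate 1 (0.25, adjusted p = 0.0473) or replicate 3 (0.49, adjusted p = 0.00601).

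MXD1, a repressor known to increase as myeloid cells mature, showed how much the pair of MOLM-13 shALKBH5 libraries weighs on the test. It had 24.9 and 23.4 TPM in NOMO-1 shALKBH5 cells, against 12.2 and 10.3 TPM in NOMO-1 shNS cells. The means differed 2.15-fold and the groups did not overlap, but the shared estimate of the spread left MXD1 short of the threshold (log2 fold change 1.04, SE 0.45, limma adjusted p = 0.111). With NOMO-1 fitted alone its adjusted p was 0.00457, and without MOLM-13 shALKBH5 replicate 1 or 3 it was 0.000245 or 0.000238. In MOLM-13, MXD1 had 53.0 TPM in shALKBH5 replicate 1 and 17.3 TPM in replicate 3, against 37.3 and 35.9 TPM in shNS cells, one above and one below both controls. The value was -0.26 (SE 0.45, limma adjusted p = 0.694), 0.52 without replicate 3 (adjusted p = 0.00807) and -1.04 without replicate 1 (adjusted p = 0.000463), so no direction can be given. Control cells had less MXD1 in NOMO-1 than in MOLM-13 (-1.62, SE 0.45, limma adjusted p = 0.0208). That call was lost without any 1 of the 4 shNS libraries, with limma adjusted p-values of 0.0687 and 0.098 without NOMO-1 replicates 1 and 3, and 0.0876 and 0.0797 without MOLM-13 replicates 1 and 3.

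MXD3, the MXD gene that in mouse is expressed in proliferating cells in S phase, stayed near 20 TPM in 7 of the 8 libraries. It had 19.7 and 19.9 TPM in NOMO-1 shALKBH5 cells, against 22.1 and 20.1 TPM in NOMO-1 shNS cells (-0.09, SE 0.20, limma adjusted p = 0.761). The MOLM-13 values were 21.8 and 14.1 TPM in shALKBH5 cells, against 19.1 and 21.3 TPM in shNS cells (-0.19, SE 0.20, limma adjusted p = 0.479). The lowest library was MOLM-13 shALKBH5 replicate 3, and without replicate 1 the value was -0.49 (limma adjusted p = 0.00529).

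MNT, a MAX-binding repressor found in most cell types, rose in NOMO-1. It had 28.1 and 26.8 TPM in NOMO-1 shALKBH5 cells, against 13.9 and 11.7 TPM in NOMO-1 shNS cells (2.14-fold, log2 fold change 1.04, SE 0.12, limma adjusted p = 0.00112). MOLM-13 values of MNT were 14.3 and 12.9 TPM in shALKBH5 cells, against 16.1 and 16.2 TPM in shNS cells. Both knockdown libraries of MOLM-13 were below both controls by little, and the change was not called (-0.24, SE 0.12, limma adjusted p = 0.149), but without shALKBH5 replicate 1 it was -0.31 (adjusted p = 0.0468), and the median-of-ratios value was 0.04 (adjusted p = 0.815). The responses differed by 1.28 (SE 0.17, limma adjusted p = 0.0044), and by 0.79 (adjusted p = 0.014) with median-of-ratios scaling.

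MLX, which binds MNT, MXD1 and MXD4 as well as MondoA, rose in NOMO-1. It had 93.2 and 92.0 TPM in NOMO-1 shALKBH5 cells, against 43.6 and 47.4 TPM in NOMO-1 shNS cells (2.04-fold, log2 fold change 1.01, SE 0.10, limma adjusted p = 0.000884). For MLX in MOLM-13 the values were 70.1 and 60.8 TPM in shALKBH5 cells, against 60.5 and 60.4 TPM in shNS cells. The knockdown values were both above the controls, one of them by less than 1 TPM, and MLX was not called (0.11, SE 0.10, limma adjusted p = 0.44). It was called with median-of-ratios scaling (0.40, adjusted p = 0.00677) and without shALKBH5 replicate 3 (0.21, adjusted p = 0.0273). The responses differed by 0.90 (SE 0.15, limma adjusted p = 0.00761), and by 0.39 (adjusted p = 0.0363) with median-of-ratios scaling.

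Counted together, 4 members were higher and 2 lower in NOMO-1, and 3 of the 9 tested were not called. Over all genes tested 28.6% were called higher and 15.0% lower in this comparison (43.6% in either direction). The NOMO-1 groups did not overlap for any of the 9 members, beside 82.6% of all genes tested. In MOLM-13, 0 members were higher and 2 lower, MYC and MXI1, where 10.6% of all genes were called higher and 31.2% lower (41.8% in either direction). Groups that did not overlap were found for 5 of 9 members in MOLM-13, beside 67.5% of all genes. The difference between the lines was called for 5 members, 4 higher in NOMO-1 (MAX, MXD4, MNT and MLX) and 1 lower (MYC), where 29.7% of all genes were called higher and 4.90% lower (34.6% in either direction). The 6 NOMO-1 calls and the 5 calls of the difference passed in every alternative run. With median-of-ratios scaling the MOLM-13 count was 4 (MYCL, MAX and MLX higher and MXI1 lower). That scaling also moved the MOLM-13 median over all genes from -0.18 to 0.03. The share of all genes called with it is not given here, so this count is not read as a result about the members.

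The counts moved with single libraries. Without MOLM-13 shALKBH5 replicate 1 or 3, 8 members were called in NOMO-1, where 68.1% of all genes were called in either of these fits. In MOLM-13, 1 member was called without any 1 of the 4 shNS libraries, beside 18.6% to 33.0% of all genes. There 4 members were called without shALKBH5 replicate 1 and 5 without shALKBH5 replicate 3, beside 66.0% and 58.1% of all genes. The difference between the lines was called for 9 members without MOLM-13 shALKBH5 replicate 1 and for 8 without replicate 3, beside 67.5% and 54.8% of all genes. These larger member counts thus came with larger shares of all genes. MYCL, whose responses differed by -1.47 (limma adjusted p = 0.152), was at -0.60 (adjusted p = 0.0172) without replicate 1 and -2.34 (0.000349) without replicate 3. MXD1, at 1.30 (limma adjusted p = 0.16), had 2.08 (0.000128) and 0.52 (0.0228) in these fits. MXD3, at 0.10 (limma adjusted p = 0.793), had 0.40 (0.0279) without replicate 1.

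**Figure D2:**
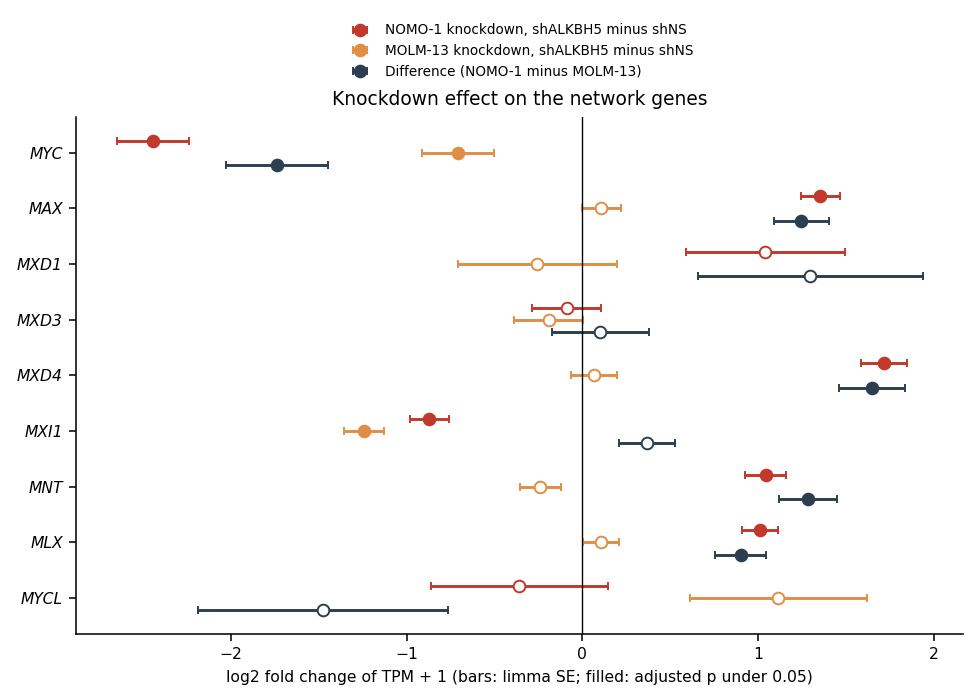
Log2 fold change of TPM + 1 (horizontal axis; shALKBH5 minus shNS in each line, and the NOMO-1 change minus the MOLM-13 change) for the 9 network genes tested; bars are limma standard errors and filled points have an adjusted p under 0.05. MYC and MXI1 lie left of 0 in both lines, and MAX, MXD4, MNT and MLX lie at 1.01 to 1.72 in NOMO-1 and between -0.24 and 0.11 in MOLM-13.

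Between the control cells of the 2 lines, 1 member was higher in NOMO-1 (MAX) and 4 were lower (MXD1, MXD4, MXI1 and MLX), where 40.6% of all genes were called higher and 19.2% lower (59.8% in either direction). MXI1 was lower by 0.51 (SE 0.11, limma adjusted p = 0.00836) and MLX by 0.40 (SE 0.10, limma adjusted p = 0.0145). Leaving out single shNS libraries ended these 2 calls in several cases: MXI1 had limma adjusted p-values of 0.0552 and 0.0515 without NOMO-1 replicates 1 and 3 and 0.0648 without MOLM-13 replicate 1. MLX had limma adjusted p-values of 0.104 without NOMO-1 replicate 1 and 0.0789 and 0.0777 without MOLM-13 replicates 1 and 3. The calls for MAX and MXD4 passed in all 16 alternatives. The median difference between controls over all genes tested was 0.285, and 0.03 with median-of-ratios scaling. MNT (-0.32, limma adjusted p = 0.0545), MYCL (-0.57, 0.363) and MXD3 (0.06, 0.814) were not called between the controls. MNT was called lower in NOMO-1 with median-of-ratios and with quantile scaling, and MXD3 was called lower with quantile scaling. Without MOLM-13 shALKBH5 replicate 1 or 3 the adjusted p was 0.0181 or 0.0182 for MNT and 0.00289 or 0.00269 for MYCL. The number of members called was 2 without replicate 1 and 3 without replicate 3 of the shNS libraries of either line, 6 without either NOMO-1 shALKBH5 library and 8 without either MOLM-13 shALKBH5 library. Of all genes, 45.3% to 45.9% were called without any 1 shNS library, 55.2% without either NOMO-1 shALKBH5 library and 78.3% without either MOLM-13 shALKBH5 library. The lines also differ in culture and handling, which cannot be told apart from the line.

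The order of the members by level was led by MYC in 3 of the 4 groups. In NOMO-1 shALKBH5 cells MLX came first (92.6 ± 0.83 TPM, mean ± SD, n = 2), followed by MAX (52.8 ± 1.59) and MYC (48.1 ± 12.8), whose libraries overlapped. MNT and MXI1 followed at the same mean of 27.4 TPM, then MXD1 (24.1), MXD4 (22.6), MXD3 (19.8) and MYCL (2.0). In NOMO-1 shNS cells the order was MYC (262.1 TPM), MXI1 (50.9), MLX (45.5), MXD3 (21.1), MAX (20.0), MNT (12.8), MXD1 (11.2), MXD4 (6.21) and MYCL (2.86). There the libraries of MXD3 and MAX overlapped, as did those of MNT and MXD1.

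In MOLM-13 shALKBH5 cells the order of means was MYC (238.6 TPM), MLX (65.4), MXD1 (35.2), MXI1 (30.4), MXD4 (23.6), MXD3 (17.9), MYCL (13.7), MNT (13.6) and MAX (11.4). The large spread of MXD1, MXD3 and MYCL in this group (SD 25.3, 5.44 and 11.2 TPM) leaves the order from MXD1 to MAX unresolved at most steps. In MOLM-13 shNS cells it was MYC (386.1 TPM), MXI1 (72.9), MLX (60.5), MXD1 (36.6), MXD4 (22.4), MXD3 (20.2), MNT (16.2), MAX (10.5) and MYCL (4.72), and no neighbours in this order overlapped.

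MYC outweighed its antagonists in the control cells of both lines and not in NOMO-1 knockdown cells. The summed level of MXD1, MXD3, MXD4, MXI1 and MNT was 122 and 121 TPM in NOMO-1 shALKBH5 cells and 105 and 99.9 TPM in NOMO-1 shNS cells. It was 138 and 103 TPM in MOLM-13 shALKBH5 cells and 169.9 and 167 TPM in MOLM-13 shNS cells. The TPM sum was thus higher in both NOMO-1 knockdown libraries and lower in both MOLM-13 knockdown libraries than in the controls of the line. With median-of-ratios scaling, an alternative chosen after seeing the data, the sums were 93.8 and 90.1 in NOMO-1 shALKBH5 cells and 92.3 and 88.0 in NOMO-1 shNS cells, so that these groups overlapped. On that scale the MOLM-13 sums were 161 and 158 in shALKBH5 cells and 185 and 181 in shNS cells. Scaling leaves the ratio of MYC to the sum as it is. The ratio of MYC to this sum was 0.321 and 0.474 in NOMO-1 shALKBH5 cells and 2.55 and 2.58 in NOMO-1 shNS cells. In MOLM-13 it was 1.49 and 2.63 in shALKBH5 cells and 2.21 and 2.38 in shNS cells, so that these groups overlapped. These ratios are descriptions of messenger RNA levels, were not tested, and do not measure protein.

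The ratio of MYC to MAX was 0.726 and 1.11 in NOMO-1 shALKBH5 cells and 13.7 and 12.6 in NOMO-1 shNS cells. In MOLM-13 it was 16.9 and 25.4 in shALKBH5 cells and 33.8 and 39.9 in shNS cells. The knockdown libraries were below the controls in both lines, and the NOMO-1 knockdown libraries were the only ones of the 8 near a ratio of 1. The antagonists together stood at 2.26 and 2.34 times MAX in NOMO-1 shALKBH5 cells and 5.37 and 4.87 times in NOMO-1 shNS cells, against 11.3 and 9.69 times in MOLM-13 shALKBH5 cells and 15.3 and 16.7 times in MOLM-13 shNS cells.

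The make-up of the antagonist pool changed along with these sums. MXI1 contributed 21.7% and 23.4% of the pool in NOMO-1 shALKBH5 cells and 48.5% and 51.2% in NOMO-1 shNS cells. It contributed 20.1% and 32.0% in MOLM-13 shALKBH5 cells and 44.5% and 42.2% in MOLM-13 shNS cells. MXI1 was the most abundant antagonist in all 4 control libraries. In NOMO-1 the shares of MXD4 were 18.7% and 18.6% in shALKBH5 cells and 5.46% and 6.70% in shNS cells, and those of MNT were 23.0% and 22.2% in shALKBH5 cells and 13.3% and 11.7% in shNS cells. In MOLM-13 cells with shALKBH5, MXD1 made up 38.4% of the pool of replicate 1 and 16.7% of that of replicate 3, beside 21.9% and 21.5% in MOLM-13 shNS cells.

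**Figure D3:**
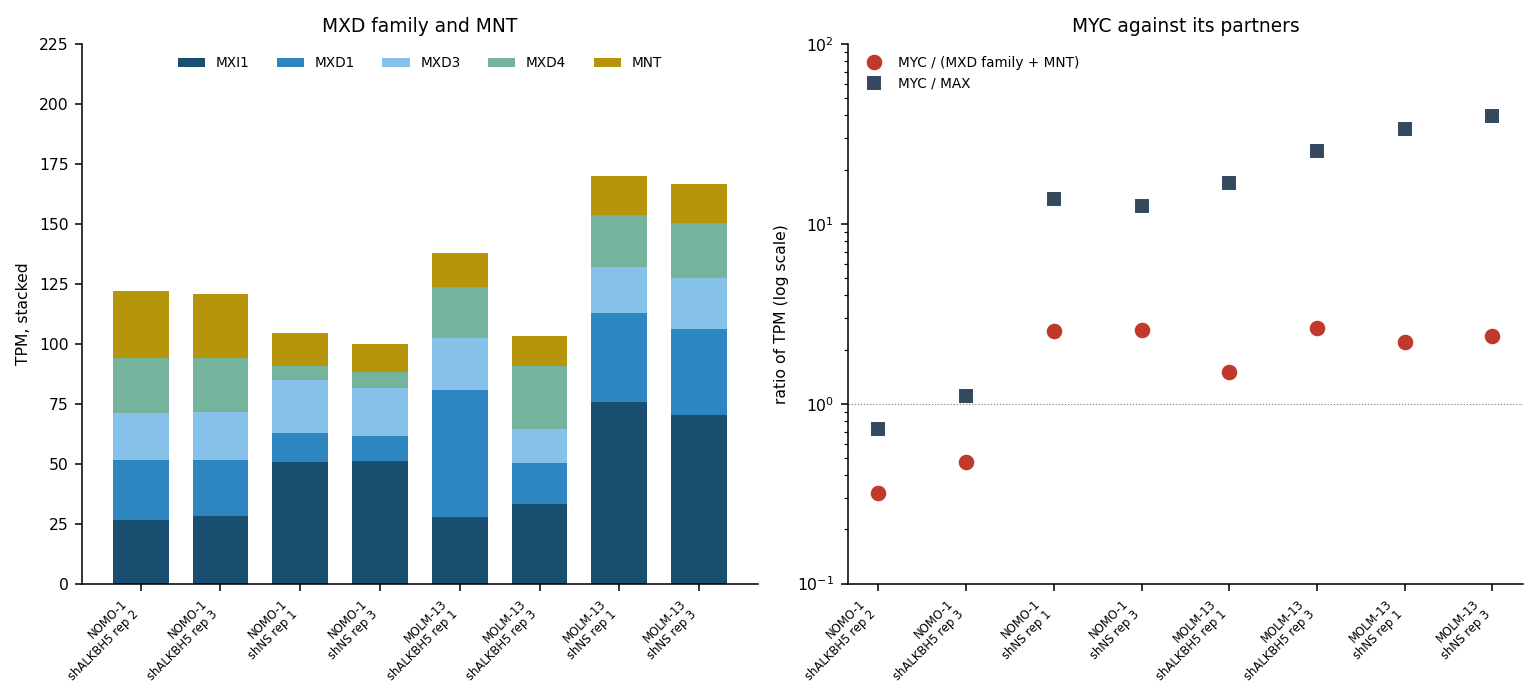
Left, stacked TPM of MXI1, MXD1, MXD3, MXD4 and MNT in each of the 8 libraries. Right, the ratio of MYC to that sum (circles) and of MYC to MAX (squares) on a log axis; the 2 NOMO-1 shALKBH5 libraries lie at 0.321 and 0.474 for the antagonists and at 0.726 and 1.11 for MAX.

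The genes whose profile was most like that of a member over the 8 libraries were ranked by Pearson's r of log2(TPM + 1) among 8796 genes averaging 10 TPM or more, as a description of libraries that share lines and controls. For MYC these were LY75, an endocytic receptor (r = 0.994), SDCCAG3, an endosomal protein gene also named ENTR1 (0.988), and DHODH, an enzyme of pyrimidine synthesis (0.987). DHODH averaged 6.47 ± 1.03 TPM in NOMO-1 shALKBH5 cells and 13.6 ± 0.83 TPM in NOMO-1 shNS cells, and 12.1 ± 0.19 TPM in MOLM-13 shALKBH5 cells and 16.4 ± 0.08 TPM in MOLM-13 shNS cells (mean ± SD, n = 2 each). With median-of-ratios scaling 0 of these 3 stayed among the first 3, at ranks 45, 60 and 7 for LY75, SDCCAG3 and DHODH. For MXI1 they were OXCT1, an enzyme of ketone body use (r = 0.998), SOX4, a transcription factor of immature cells (0.995), and IPO4, a nuclear import receptor (0.984), of which 1, SOX4 at rank 2, stayed among the first 3. OXCT1 averaged 13.9 ± 1.37 TPM in NOMO-1 shALKBH5 cells and 36.0 ± 0.61 TPM in NOMO-1 shNS cells, and 15.2 ± 2.89 TPM in MOLM-13 shALKBH5 cells and 58.9 ± 2.14 TPM in MOLM-13 shNS cells.

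Of 6 genes of the wider network outside the members, 4 were tested. MLXIP, which encodes MondoA, rose in both lines. It had 37.1 and 37.5 TPM in NOMO-1 shALKBH5 cells, against 18.0 and 17.0 TPM in NOMO-1 shNS cells (1.05, limma adjusted p = 0.000608). Its MOLM-13 values were 53.9 and 49.6 TPM in shALKBH5 cells, against 31.0 and 32.2 TPM in shNS cells (0.69, limma adjusted p = 0.00237). MLXIP was past the threshold in all 17 alternatives in both lines, and the difference between its responses was 0.36 (limma adjusted p = 0.0763).

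PVT1, a long noncoding RNA gene that neighbours MYC, moved in opposite directions in the 2 lines. It had 2.43 and 2.42 TPM in NOMO-1 shALKBH5 cells, against 8.97 and 7.0 TPM in NOMO-1 shNS cells (-1.38, limma adjusted p = 0.000799). In MOLM-13 it had 34.7 and 39.3 TPM in shALKBH5 cells, against 23.4 and 24.0 TPM in shNS cells (0.62, limma adjusted p = 0.0134). The MOLM-13 rise was lost with the line fitted alone (adjusted p = 0.0674) and without either MOLM-13 shNS library, while the difference between the lines, -2.0 (SE 0.19, limma adjusted p = 0.00231), passed in all alternatives. In MOLM-13 PVT1 thus rose where MYC fell, but with the line fitted alone neither gene was called.

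MGA, a MAX partner of non-canonical Polycomb complexes, had 3.17 and 3.40 TPM in NOMO-1 shALKBH5 cells and 3.02 and 3.21 TPM in NOMO-1 shNS cells (0.06, limma adjusted p = 0.682). In MOLM-13 it had 26.3 and 24.1 TPM in shALKBH5 cells, against 35.4 and 35.9 TPM in shNS cells (-0.48, limma adjusted p = 0.0108, a call lost with median-of-ratios scaling at 0.154, with quantile scaling at 0.372 and with the line fitted alone at 0.0848). Its largest contrast was between control cells, lower in NOMO-1 than in MOLM-13 by 3.16 on the log2 scale (limma adjusted p = 2.29e-06). TCFL5, a basic helix-loop-helix factor, had 43.7 and 45.2 TPM in NOMO-1 shALKBH5 cells and 43.8 and 46.0 TPM in NOMO-1 shNS cells (-0.01, limma adjusted p = 0.928). In MOLM-13 it fell to 11.57 and 10.97 TPM in shALKBH5 cells, against 18.0 and 18.4 TPM in shNS cells (-0.65, limma adjusted p = 0.00263), a call that was lost with quantile scaling and with the line fitted alone. MLXIPL and MYCNOS had at most 0.08 TPM and were not tested.

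Targets that MYC is known to induce were more often lower than higher in both lines. Of 40 such genes 25 fell and 3 rose in NOMO-1 (median log2 fold change -0.44), beside 15.0% of all genes lower and 28.6% higher. In MOLM-13, 29 fell and 0 rose (median -0.63), beside 31.2% of all genes lower and 10.6% higher. With median-of-ratios scaling 31 fell and 1 rose in NOMO-1 and 21 fell and 1 rose in MOLM-13. The MOLM-13 count of lower genes was 13 with the line fitted alone, and it also fell without either MOLM-13 shNS library. With the line alone 1684 of all genes were called in either direction, against 5972 with both lines fitted together. The number of all genes called thus moved as well in the alternative fits given for this list and the lists below, and their counts are to be read beside it. CCND2, cyclin D2, fell by 1.93 in NOMO-1 (limma adjusted p = 0.000316) and by 0.78 in MOLM-13 (0.00314). RRS1 and BOP1, ribosome assembly factors, fell by 1.25 and 1.12 in NOMO-1 (adjusted p = 0.000375 and 0.000616) and by 0.63 and 0.32 in MOLM-13 (0.00289 and 0.0426). UNG, a DNA glycosylase gene, was at -0.84 in NOMO-1 (limma adjusted p = 0.00419) and -3.14 in MOLM-13 (0.000141). PPAT, an enzyme of purine synthesis, was at -1.09 in NOMO-1 and -1.59 in MOLM-13 (adjusted p = 0.000804 and 0.000301), and NPM1, a nucleolar protein gene, at -0.66 and -1.55 (0.00399 and 0.000304).

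Targets that MYC is known to repress went up more often than down in NOMO-1, with 6 higher and 1 lower of 12 tested (median 0.50), beside 28.6% of all genes higher and 15.0% lower. In MOLM-13, 1 was higher and 4 lower (median -0.02), beside 10.6% of all genes higher and 31.2% lower. With median-of-ratios scaling 5 were higher and 3 lower in NOMO-1, and 4 higher and 3 lower in MOLM-13. The NOMO-1 count of higher genes was 3 without shNS replicate 1, without shALKBH5 replicate 2 or without shALKBH5 replicate 3, beside 2 lower in the first of these fits and 1 in the others. The MOLM-13 count of higher genes was 6 without shALKBH5 replicate 3, and 0 with the line fitted alone, with no filter, or without any 1 of the 4 NOMO-1 or 2 MOLM-13 shNS libraries. The MOLM-13 count of lower genes was 1 without either MOLM-13 shNS library. CDKN2B, the inhibitor p15, had 9.07 and 8.57 TPM in NOMO-1 shALKBH5 cells, against 2.28 and 2.60 TPM in NOMO-1 shNS cells. The change was 1.51 (limma adjusted p = 0.00037). CDKN2B was listed at 0 in all MOLM-13 libraries and passed the filter through NOMO-1 alone. Those 0 values show no spread, so they lower the shared estimate of the spread behind this p-value. The gene also counts among the 12 tested in MOLM-13, where it could not be called. CDKN1A, which encodes the cell cycle inhibitor p21, was at 1.78 in NOMO-1 (limma adjusted p = 0.00212) and 0.75 in MOLM-13 (0.0481). The MOLM-13 call of CDKN1A was at the threshold: its limma adjusted p was 0.182 with the line fitted alone, 0.086 with no filter, 0.0568 with quantile scaling, 0.0509 with no trend, 0.0855 to 0.0868 without any 1 NOMO-1 library, and 0.182 and 0.148 without MOLM-13 shNS replicates 1 and 3. CCNG2, an atypical cyclin gene, was at -0.81 in NOMO-1 (0.00363) and -1.66 in MOLM-13 (0.000404). CDKN1B, the inhibitor p27, and BTG1, an antiproliferative gene, were higher in NOMO-1 (0.86 and 0.66, limma adjusted p = 0.0225 and 0.0446). Both were lower in MOLM-13 (-1.16 and -0.92, limma adjusted p = 0.00845 and 0.0151). Their responses differed between the lines by 2.02 and 1.57 (limma adjusted p = 0.00707 and 0.0118). The NOMO-1 call of BTG1 was close to the threshold. With MOLM-13 fitted alone, 1 gene of this list was called lower there, against 4 with both lines fitted together.

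TXNIP, an inhibitor of glucose uptake that is on the lists of both MYC-repressed genes and MondoA and MLX targets, had 242 and 234 TPM in NOMO-1 shALKBH5 cells, against 69.7 and 74.2 TPM in NOMO-1 shNS cells (1.71, limma adjusted p = 0.000375). In MOLM-13 it had 375 and 301 TPM in shALKBH5 cells, against 290.2 and 280.1 TPM in shNS cells (0.24, limma adjusted p = 0.169). Of the 6 tested targets of MondoA and MLX, 2 were higher and 0 lower in NOMO-1 (median 0.02). Over all genes 28.6% were higher and 15.0% lower in this line. In MOLM-13, 0 were higher and 1 lower (median -0.14), beside 10.6% of all genes higher and 31.2% lower. With median-of-ratios scaling these counts were 1 and 1 in NOMO-1 and 3 and 1 in MOLM-13. The second gene higher in NOMO-1 was PFKFB3, a regulator of glycolysis (0.35, limma adjusted p = 0.018), and the gene lower in MOLM-13 was HK2, a hexokinase (-0.57, adjusted p = 0.0346). Leaving out any 1 NOMO-1 or MOLM-13 shNS library or either NOMO-1 shALKBH5 library left 1 gene higher in NOMO-1, and the MOLM-13 count of lower genes was 0 without any 1 of those 6 libraries, 3 without shALKBH5 replicate 1 and 2 without replicate 3.

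The SIN3 and histone deacetylase complex, through which MXD proteins and MNT repress, had more lower than higher genes in both lines. In MOLM-13 this also held over all genes tested. Of 18 genes 6 were lower and 1 higher in NOMO-1 (median -0.18), beside 15.0% of all genes lower and 28.6% higher. In MOLM-13, 14 were lower and 0 higher (median -0.81), beside 31.2% of all genes lower and 10.6% higher. With median-of-ratios scaling 12 were lower in NOMO-1 and 14 in MOLM-13. HDAC2, a deacetylase, was at -1.19 in NOMO-1 and -1.35 in MOLM-13 (limma adjusted p = 0.00115 and 0.000911). BRMS1L, SAP30 and ING2, further subunits, were at -1.30, -1.0 and -0.62 in NOMO-1 (limma adjusted p = 0.000753, 0.00312 and 0.00733) and at -1.36, -1.62 and -1.65 in MOLM-13 (0.000676, 0.000746 and 0.000341). Both NOMO-1 counts rose without either MOLM-13 shALKBH5 library, where the share of all genes called rose too. The count of higher genes in NOMO-1 fell without either NOMO-1 shNS library, where the share of all genes called fell too. The MOLM-13 count of lower genes was 5 with the line fitted alone, where fewer of all genes were called. It also fell without either MOLM-13 shNS library.

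Coactivators and cofactors of MYC had 6 lower and 3 higher of 18 in NOMO-1 (median -0.14). Over all genes 15.0% were lower and 28.6% higher in this line. In MOLM-13, 10 were lower and 1 higher (median -0.42), beside 31.2% of all genes lower and 10.6% higher. With median-of-ratios scaling 10 were lower in NOMO-1 and 6 in MOLM-13. RUVBL1, an ATPase of the TIP60 complex, was at -0.67 in NOMO-1 and -0.62 in MOLM-13 (limma adjusted p = 0.00207 and 0.00321), and its partners DMAP1 and BRD8 at -0.67 and -0.51 in NOMO-1 (0.00268 and 0.0209) and -0.61 and -0.71 in MOLM-13 (0.00435 and 0.00703). SUPT5H, an elongation factor, was higher at 0.90 in NOMO-1 and 0.35 in MOLM-13 (limma adjusted p = 0.00111 and 0.0337). Its MOLM-13 call was lost with the line fitted alone, where 0 genes of this list were called higher. These counts moved with single libraries: 3 were lower in NOMO-1 without shNS replicate 1, shNS replicate 3 or shALKBH5 replicate 2. In MOLM-13 the lower count was 6 without any 1 NOMO-1 library, 2 without either MOLM-13 shNS library and 0 with the line fitted alone.

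Genes that control the turnover of MYC protein had 6 lower and 3 higher of 19 in NOMO-1 (median -0.01). Over all genes 15.0% were lower and 28.6% higher in this line. In MOLM-13, 14 were lower and 0 higher (median -0.78), beside 31.2% of all genes lower and 10.6% higher. PLK1, a mitotic kinase that stabilises MYC proteins, was at -2.50 in NOMO-1 and -3.90 in MOLM-13 (limma adjusted p = 0.000473 and 0.000184). AURKA, another mitotic kinase known to stabilise MYCN, was at -1.20 and -1.36 (0.000531 and 0.000366), and SKP2, a ubiquitin ligase subunit, at -1.15 and -1.65 (0.000783 and 0.000297). All 3 are also known as genes of the cell cycle. With median-of-ratios scaling 10 were lower in NOMO-1 and 12 in MOLM-13. The NOMO-1 count of higher genes was 0 without shNS replicate 1, shNS replicate 3 or shALKBH5 replicate 2, 1 without shALKBH5 replicate 3, and 8 without either MOLM-13 shALKBH5 library. In MOLM-13 the lower count was 4 with the line fitted alone and 6 without either MOLM-13 shNS library.

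Regulators of MYC transcription and messenger RNA, readers of the N6-methyl mark included, had 4 lower and 2 higher of 16 in NOMO-1 (median -0.08). Over all genes 15.0% were lower and 28.6% higher in this line. In MOLM-13, 10 were lower and 0 higher (median -0.48), beside 31.2% of all genes lower and 10.6% higher. IGF2BP2, a reader that stabilises methylated messenger RNA including that of MYC, had 6.04 and 6.43 TPM in NOMO-1 shALKBH5 cells, against 30.4 and 34.1 TPM in NOMO-1 shNS cells (-2.20, limma adjusted p = 0.00024). In MOLM-13 it had 44.3 and 45.5 TPM in shALKBH5 cells, against 80.4 and 78.1 TPM in shNS cells (-0.81, limma adjusted p = 0.00171). The groups did not overlap in either line. HNRNPD, which binds AU-rich elements, was at -0.76 and -1.24 (limma adjusted p = 0.00209 and 0.000503), and FUBP1, an activator of MYC transcription, at -0.76 and -1.07 (0.0105 and 0.00333). YTHDF3, a reader of the mark, was higher in NOMO-1 (1.10, limma adjusted p = 0.00768) and at -0.12 in MOLM-13 (0.697). The NOMO-1 call of YTHDF3 was lost without shNS replicate 3 (adjusted p = 0.0541) or shALKBH5 replicate 2 (0.0581), and without MOLM-13 shALKBH5 replicate 1 the MOLM-13 value was -0.46 (limma adjusted p = 0.00532). In those 2 NOMO-1 fits the higher count was 0 of 16, and it was 1 without shNS replicate 1 or shALKBH5 replicate 3. With median-of-ratios scaling 10 were lower in each line. The NOMO-1 lower count was 2 without shNS replicate 1, shNS replicate 3 or shALKBH5 replicate 2, and 7 without either MOLM-13 shALKBH5 library, while in MOLM-13 it was 6 without any 1 NOMO-1 library, 4 without either MOLM-13 shNS library and 2 with the line fitted alone.

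Genes of monocytic differentiation, beside which MXD genes are known to change, had 6 higher and 2 lower of 15 in NOMO-1 (median 0.32). Over all genes 28.6% were higher and 15.0% lower in this line. In MOLM-13, 4 were higher and 2 lower (median 0.45), beside 10.6% of all genes higher and 31.2% lower. The genes named next had the 3 smallest p in each line, and those called lower are not among them. CD68, a lysosomal protein gene of macrophages, was at 1.67 in NOMO-1 and 0.92 in MOLM-13 (limma adjusted p = 0.000316 and 0.0012), and LYZ, lysozyme, at 1.66 and 0.80 (0.00165 and 0.0241). S100A8, a calcium-binding protein gene of monocytes and neutrophils, was at 1.93 in NOMO-1 (limma adjusted p = 0.000931) and -0.32 in MOLM-13 (0.254). CEBPB, a transcription factor of monocytes, was at 0.10 in NOMO-1 (0.411) and 1.27 in MOLM-13 (0.000304), and ITGAX, an integrin gene, at 0.68 (0.0639) and 1.00 (0.0191). With median-of-ratios scaling 6 were higher and 3 lower in NOMO-1 and 7 higher and 0 lower in MOLM-13. The NOMO-1 count was 3 higher and 0 lower without any 1 NOMO-1 library or either MOLM-13 shNS library. The MOLM-13 count of higher genes was 2 without either MOLM-13 shNS library or with the line fitted alone, and 10 without shALKBH5 replicate 3. That of lower genes was 0 without either MOLM-13 shNS library, 1 without any 1 NOMO-1 library and 4 without shALKBH5 replicate 1.

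**Figure D4:**
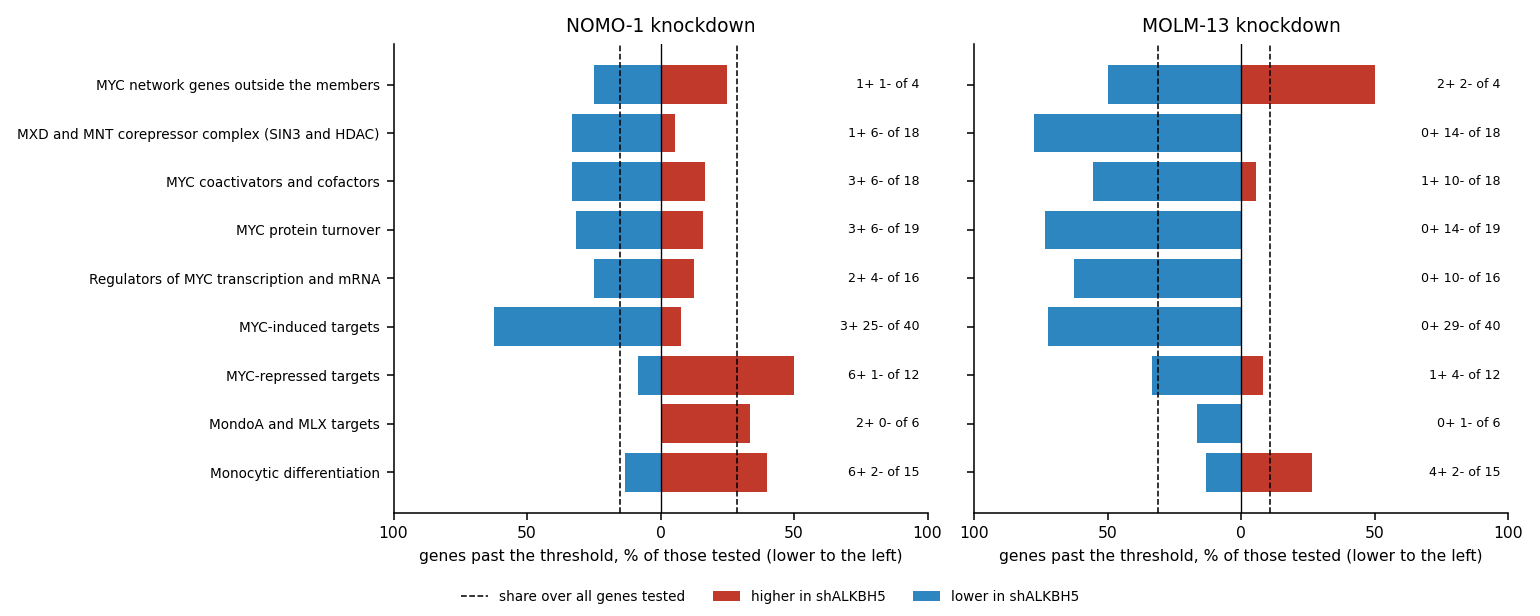
Share of the tested genes of each list (percent, horizontal axis) called higher (bars to the right) or lower (bars to the left) at an adjusted p under 0.05, in NOMO-1 on the left panel and MOLM-13 on the right. Dashed lines give the share over all 14302 genes, 28.6% higher and 15.0% lower in NOMO-1 and 10.6% higher and 31.2% lower in MOLM-13; of the MYC-induced targets 25 of 40 were lower in NOMO-1 and 29 of 40 in MOLM-13.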

How the data were processed

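The authors deposited 1 table of TPM values for the whole series; per the submitters' processing notes STAR and RSEM were used with GRCh38, with versions, annotation and strand setting not given in the sources used here. No counting interval was made, since TPM keeps no depth, and an exact 0 can be a failed estimate. Columns marked E in the table were matched to the shALKBH5 titles of the labels. A gene was kept when 2 or more libraries had 1 TPM or more. Log2(TPM + 1) was fitted with limma 3.58.1 in R 4.3.3, with a mean for each of the 4 groups over all 8 libraries, an intensity trend and 4 residual degrees of freedom, and p-values were two-sided and adjusted (Benjamini-Hochberg) over all 14302 genes. The script was tested on simulated data. A count model planned for raw counts was not used. Alternatives were pseudocounts of 0.1 and 5 TPM, no filter or one of 5 TPM, median-of-ratios and quantile scaling, each line alone, no trend, a term for the replicate number, and each library left out, which assumes that a lone library varies like the others. Median-of-ratios scaling of the summed antagonists was added after seeing the data. Lists were described by the 3 genes with the smallest p in each line. Similar genes were named for MYC and for the members called in both lines. The members, lists and tests were chosen with earlier results of these data known.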

Additional observations from a re-analysis of the deposited data

Results flagged for a closer look

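For 5 members the response to ALKBH5 knockdown differed between the lines by the test of the difference itself, NOMO-1 minus MOLM-13 on the log2 scale. The difference was -1.74 for MYC (limma adjusted p = 0.00838), 1.25 for MAX (0.00411), 1.65 for MXD4 (0.00329), 1.28 for MNT (0.0044) and 0.90 for MLX (0.00761). The level of MYC was lower in both knockdown libraries of each line, by 2.45 in NOMO-1 and 0.71 in MOLM-13. MAX, MXD4, MNT and MLX were higher in both NOMO-1 knockdown libraries than in both NOMO-1 controls, and in MOLM-13 none of the 4 was called in either direction in the values as deposited. With median-of-ratios scaling MAX (0.38, limma adjusted p = 0.0169) and MLX (0.40, limma adjusted p = 0.00677) were called higher in MOLM-13. Over all genes tested 34.6% were called for this difference. Its median over all genes was 0.42 in the values as deposited and -0.01 with median-of-ratios scaling. With that scaling the difference was -2.24 for MYC, 0.75 for MAX, 1.14 for MXD4, 0.79 for MNT and 0.39 for MLX, each still past the threshold.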

How the results depend on the processing

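Single-gene values of ALKBH5, the network genes and the named list genes kept their direction and side of the threshold in 2755 of 3168 cases under the alternatives. A further 58 changed sign between values that both missed it, 257 lost and 92 gained a call, and the cause was not tested. Apart from the wider network list, the named list genes were picked for the smallest p in these same data. These numbers therefore do not describe the whole lists. The sign changed between 2 values of which at least 1 was called for MXD1 in MOLM-13 (0.52 without shALKBH5 replicate 3, against -1.04 without replicate 1), for the difference between lines of ALKBH5 (-0.33) and HNRNPD (-0.030) with median-of-ratios scaling and of MGA (-0.075) with quantile scaling, and between controls for MXD3 (-0.28) and NPM1 (0.47) with quantile scaling. Network genes called in MOLM-13 numbered 2 as reported, 1 with no filter, 1 with the line alone and 4 with median-of-ratios or quantile scaling. All genes called in MOLM-13 numbered 5972, and 1684 with the line alone. Between controls 8 network genes were called with quantile scaling, against 5. With each library left out, network genes called ranged from 6 to 8 in NOMO-1, 1 to 5 in MOLM-13, 5 to 9 for the difference and 2 to 8 between controls. All genes called lay between 3490, without NOMO-1 shNS replicate 3, and 9745 in NOMO-1, and ranged from 2665 to 9439 in MOLM-13, 1635 to 9661 for the difference and 6480 to 11202 between controls; the 3 lowest of these were without MOLM-13 shNS replicate 1 and the highest without MOLM-13 shALKBH5 replicate 1. The replicate block used the MOLM-13 numbers 1 and 3, which the labels do not tie to shared cultures (r = 0.131 between same-numbered deviations over 8803 genes): 6, 2, 5 and 5 network genes were called in NOMO-1, in MOLM-13, for the difference and between controls, and 6699, 6534, 5661 and 8287 of all genes. The NOMO-1 groups share only the number 3. The log2 ratio of the summed antagonists was 0.25 in NOMO-1 and -0.48 in MOLM-13, and 0.03 and -0.20 with median-of-ratios scaling of these sums, which was chosen after seeing the data. With 2 libraries a group and 1 hairpin a line, small changes may be missed.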
